A study of Mus musculus with 6 samples.

Results

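The genes described here encode enzymes of cholesterol synthesis, with 1 regulator named beside them. The set named 8 genes: Hmgcs1, Idi1, Fdps, Fdft1, Sqle, Lss, Cyp51 and Insig1. A probe set was taken where the array annotation gave it exactly 1 gene symbol and that symbol was in the set, without regard to its values. Of the 8 genes, 7 had such probe sets, 19 in all, out of 22626 probe sets and 12393 genes. Insig1, whose product retains the sterol sensor complex in the endoplasmic reticulum, was not analysed here, so the measured genes are all enzymes of synthesis and none is a gene of uptake.

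Mouse embryos of strain c57bl/6 were collected at 9.5 days post coitum. The mutant embryos were homozygous for the Dll3 allele tm1Rbe, also written Dll3neo, and the others were wild-type. The Dll3 protein is an atypical ligand of the Notch pathway, and somites form irregularly without it. Tissue between the otic placode and the last somite, without heart and endoderm, was pooled, and RNA of 3 Dll3 mutant pools and 3 wild-type pools was hybridised to 1 Affymetrix MOE430A array each. The series design calls the pools biological replicates. How many embryos went into a pool is not stated in the labels. The tissue held neural tube, surface ectoderm and blood beside the somites, and in such mixed tissue fewer cells of a type and less RNA per cell cannot be told apart.

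Cells build cholesterol from acetyl-CoA. Hmgcs1 condenses acetyl units at the entry of the mevalonate arm, Idi1 isomerises the isoprene building block, and Fdps joins these blocks into farnesyl diphosphate, which also feeds protein prenylation. Fdft1 makes squalene, the first step committed to sterols, Sqle oxidises it, Lss closes the ring to give lanosterol, and Cyp51 removes a methyl group from lanosterol. SREBP transcription factors switch these genes on together when sterols in the endoplasmic reticulum are scarce, and Insig proteins hold the factors back when sterols are plentiful. Embryonic tissue needs the product for membranes and for the modification of Hedgehog proteins.

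Promoter windows are given first as background, since the common regulation of these genes is known to act through promoter elements. The part of such elements in the pool pattern described below was not tested. RefSeq promoter windows (build GRCm38.p6, 250 bases before to 50 after the start of the gene) were matched for 4 of the 7 measured genes: Hmgcs1, Idi1, Lss and Cyp51. The windows of Hmgcs1 (chr13:119690101-119690400, plus strand) and Cyp51 (chr5:4104648-4104947, minus strand) are shown, as this pair of genes had the most similar pool pattern. Capitals mark matches, on either strand, to TCACNCCAC (core of the sterol regulatory element bound by SREBP), CCAAT (the NF-Y box) and GGGCGG (the Sp1 box), and no capitals of different motifs overlap.
Hmgcs1: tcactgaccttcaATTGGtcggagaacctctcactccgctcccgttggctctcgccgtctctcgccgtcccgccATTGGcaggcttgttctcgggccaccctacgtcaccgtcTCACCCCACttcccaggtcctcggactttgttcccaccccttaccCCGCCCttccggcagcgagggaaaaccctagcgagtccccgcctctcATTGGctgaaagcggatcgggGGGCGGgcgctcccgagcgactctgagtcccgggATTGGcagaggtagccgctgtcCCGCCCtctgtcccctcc
Cyp51: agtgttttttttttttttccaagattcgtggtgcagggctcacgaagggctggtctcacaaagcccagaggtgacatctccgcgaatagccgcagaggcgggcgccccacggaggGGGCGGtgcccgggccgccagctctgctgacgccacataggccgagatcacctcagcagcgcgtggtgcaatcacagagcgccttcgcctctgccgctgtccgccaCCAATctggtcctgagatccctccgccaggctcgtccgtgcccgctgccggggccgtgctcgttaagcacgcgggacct
Hmgcs1 held 1 match to the sterol element, TCACCCCAC, which starts 137 bases before the start of the gene. It also held 4 matches to CCAAT and 3 to GGGCGG. The windows of Cyp51, Idi1 and Lss held 0 matches to the sterol element, so 1 of the 4 windows had one. Cyp51 held 1 match to CCAAT and 1 to GGGCGG, Idi1 held 2 and 1, and Lss held 1 and 2. Of all 32851 promoter windows of 300 bases, 1.24% held TCACNCCAC, 37.4% held CCAAT and 35.7% held GGGCGG. A match describes these letters and shows no binding. A window without a match can still hold variants of an element that this exact search leaves out.

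Each deposited value is a ratio of the pool to a reference of that probe set, so pools can be compared and levels of different genes cannot. A ratio of 1 lies near the middle of the 6 pools for most probe sets. The value of a gene is the geometric mean of its probe sets, and differences are on the log2 scale, mutant minus wild-type. Dll3 itself stood at 0.983 ± 0.0376 in mutant pools and 0.997 ± 0.0345 in wild-type pools (SD, n = 3 each). The sources used here do not place its probe set relative to the insertion, so it does not check the labels. Ratios carry no level, so whether markers of the labelled tissue were present or absent could not be read from them.

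Mutant pools were compared with wild-type pools to ask whether cholesterol synthesis genes differ when Dll3 is disrupted. No difference in any of the 7 genes was detectable with these arrays: 3 were higher and 4 lower in mutant pools, beside 51.9% of all genes that were higher. The differences ran from -0.06 (Fdft1) to 0.05 (Lss), with a median of -0.002, beside a median of 0.003 over all genes. Of the 7 genes, 0 passed an adjusted p of 0.05 in limma, beside 0.0% of the 12393 genes tested. At an unadjusted p under 0.05 there were again 0 of the 7, beside 2.67% of all genes (331), and the smallest p of a member was 0.493. The genotypes overlapped in all 7 genes, while 7.46% of all genes had groups that did not overlap.

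Hmgcs1, at the entry of the pathway, had a ratio of 0.828, 1.14 and 0.956 in mutant pools 1 to 3, against 0.845, 1.06 and 1.01 in wild-type pools 1 to 3. The pools numbered 1 were the lowest of both genotypes and mutant pool 2 was the highest, so the spread lay within the genotypes. The difference was -0.002 (SE 0.123, 95% interval -0.28 to 0.27, limma adjusted p = 0.9997).

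Idi1 had a ratio of 0.934, 1.07 and 0.964 in mutant pools, against 0.794, 1.06 and 1.17 in wild-type pools, with the lowest and the highest value both in wild-type pools. Its difference was -0.01 (SE 0.13, 95% interval -0.30 to 0.28). Both its probe sets were low in wild-type pool 1, 1423804_a_at at 0.78 and 1451122_at at 0.808. In wild-type pool 3 they parted, at 1.369 for 1423804_a_at and 0.998 for 1451122_at.

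Fdps, the farnesyl diphosphate synthase, had a ratio of 0.768, 0.916 and 0.857 in mutant pools, against 0.854, 0.883 and 0.818 in wild-type pools. Its values lie below 1 through probe set 1438150_at, whose ratio was 0.685 to 0.711 in mutant pools and 0.692 to 0.791 in wild-type pools, with a median of 0.71. The other probe set, 1423418_at, was at 0.861, 1.185 and 1.032 in mutant pools and 0.923, 1.073 and 0.968 in wild-type pools. The difference of the gene was -0.01 (SE 0.0847, 95% interval -0.20 to 0.18).

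Fdft1, the squalene synthase, had a ratio of 0.934, 1.06 and 0.947 in mutant pools, against 1.01, 1.11 and 0.955 in wild-type pools. Each mutant pool lay below the wild-type pool of its number, by 0.11, 0.06 and 0.01 on the log2 scale, which is within the spread between pools of 1 genotype. The difference was -0.06 (SE 0.0869, 95% interval -0.25 to 0.13). Of its probe sets, only 1438919_x_at lay lower in the mutant pool of every number.

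Sqle, the squalene epoxidase, was measured by 1 probe set, at 1.001, 1.118 and 0.909 in mutant pools and 0.921, 1.046 and 0.999 in wild-type pools. Both the highest and the lowest of the 6 values were in mutant pools, and the difference was 0.03 (SE 0.0931, 95% interval -0.18 to 0.23).

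Lss, the lanosterol synthase, had a ratio of 1.01, 1.05 and 1.02 in mutant pools, against 0.966, 1.02 and 0.992 in wild-type pools. As a mean over probe sets it had the smallest range of the 7, 0.12 on the log2 scale. Its probe sets ranged more widely, over 0.26 (1420013_s_at), 0.23 (1420014_at) and 0.28 (1426913_at). Probe sets 1420013_s_at and 1420014_at ran opposite to each other (r = -0.84). Each mutant pool lay above the wild-type pool of its number, by 0.06, 0.04 and 0.04 on the log2 scale. The difference was 0.05 (SE 0.0708, 95% interval -0.11 to 0.20), and the genotypes overlapped. Of its probe sets, only 1426913_at lay higher in the mutant pool of every number, by 0.09, 0.19 and 0.13. Probe set 1420013_s_at differed by -0.10, -0.03 and 0.06, and 1420014_at by 0.19, -0.04 and -0.08.

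Cyp51, the lanosterol demethylase, had a ratio of 0.86, 1.11 and 1.05 in mutant pools, against 0.929, 0.999 and 1.04 in wild-type pools. Mutant pools held both its lowest and its highest value, and the difference was 0.02 (SE 0.102, 95% interval -0.21 to 0.25). Of the 7 intervals, that of Idi1 had both the lowest bound (-0.30) and the highest (0.28), and each gene's own interval gives the differences that these arrays leave possible for it.

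**Figure D1:**
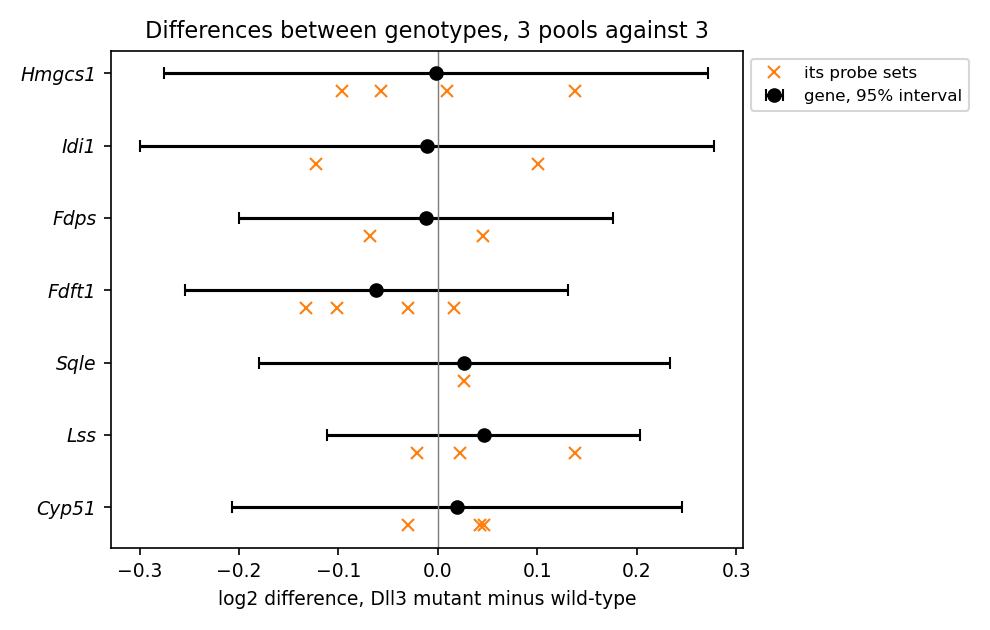
Log2 difference, Dll3 mutant minus wild-type, for each of the 7 genes (black point, limma 95% interval, 3 pools per genotype) and for each of their probe sets (orange crosses). Every interval spans 0, from -0.30 at the lowest bound to 0.28 at the highest, and probe sets of Hmgcs1, Idi1, Fdps, Fdft1, Lss and Cyp51 lie on both sides of 0.

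Of the 19 probe sets, 10 were higher and 9 lower in mutant pools, beside 51.5% of all probe sets that were higher. An unadjusted p under 0.05 was found for 0 of the 19, beside 2.63% of all probe sets. None had groups that did not overlap, beside 7.46% of all probe sets. The smallest p of the 19 was that of Lss probe set 1426913_at (adjusted p = 0.99996 in limma). It was at 1, 1.14 and 1.034 in mutant pools and 0.938, 1 and 0.944 in wild-type pools, a difference of 0.14 (SE 0.0884).

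The 7 genes did vary, and largely together, from pool to pool. Deviations were taken from each gene's median over the 6 pools. Their mean over the 7 genes was -0.12 ± 0.101 in mutant pool 1, 0.12 ± 0.052 in mutant pool 2 and -0.03 ± 0.0608 in mutant pool 3 (SD over 7 genes). In wild-type pools 1, 2 and 3 it was -0.12 ± 0.131, 0.06 ± 0.0657 and 0.02 ± 0.0912. Both pools numbered 1 were low and both numbered 2 were high, so the genotypes overlapped fully.

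The mean over pools was -0.011 ± 0.121 in mutant pools and -0.012 ± 0.0968 in wild-type pools (SD, n = 3 each). Within numbers 1, 2 and 3, the mutant pool differed from the wild-type pool by 0.001, 0.055 and -0.054. Between mutant pools 2 and 1 the members differed by 0.24 on the log2 scale, or 1.18-fold, and between wild-type pools 2 and 1 by 0.19, or 1.14-fold. Pools 2 and 1 held the highest and the lowest mean of each genotype and were picked after the values were seen. Their differences thus exceed those between same-numbered pools of different genotype through this choice, and do not weigh pool number against genotype.

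All 7 genes were above their median in mutant pool 2, where 51.6% of all genes were. In wild-type pool 2, 6 of 7 were above it, beside 45% of all genes. In mutant pool 1 and in wild-type pool 1, 6 of 7 were below it, beside 53.4% and 49.1% of all genes. The gene that departed was Fdft1 in wild-type pool 1, Cyp51 in wild-type pool 2 and Sqle in mutant pool 1. In the pools numbered 3 the genes divided, with 3 above and 4 below in mutant pool 3 and likewise in wild-type pool 3.

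**Figure D2:**
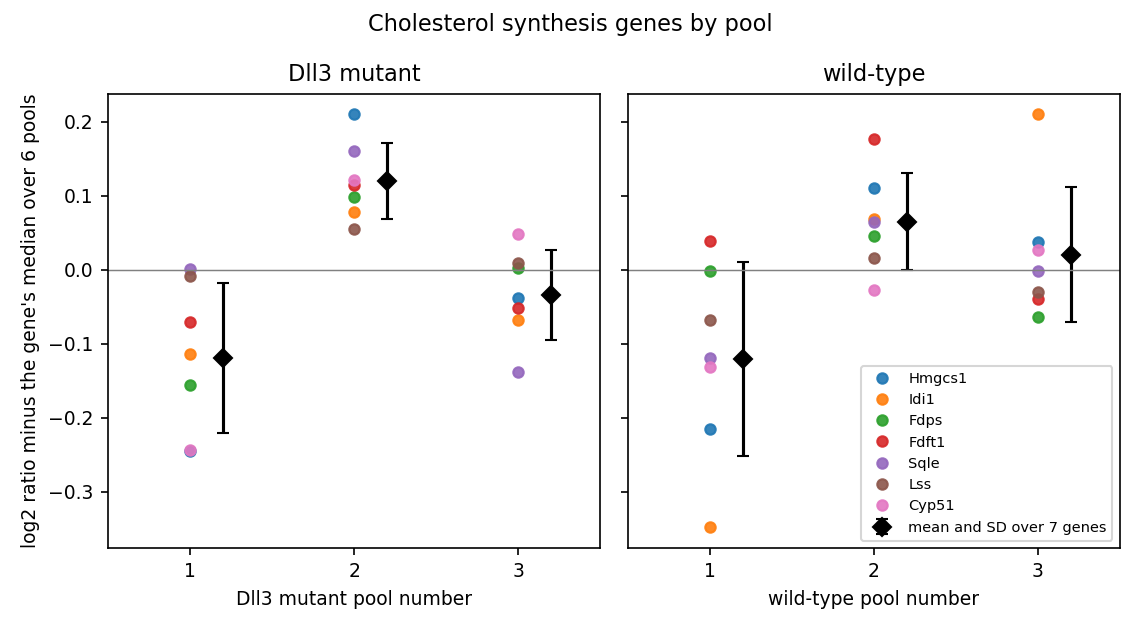
Log2 ratio of each of the 7 genes minus its median over 6 pools, by pool number, for Dll3 mutant (left) and wild-type (right) pools, with the mean and SD over the 7 genes as black diamonds. The means are near -0.12 in both pools numbered 1, at 0.12 in mutant pool 2 and at 0.06 in wild-type pool 2.

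For all 7 genes both pools numbered 2 lay above both pools numbered 1, which held for 18.2% of all genes. This order was picked after the values were seen, so its counts are a description. It held for 14 of the 19 probe sets, beside 18.6% of all probe sets. Mutant pool 2 was the highest of the 6 pools for 5 genes (Hmgcs1, Fdps, Sqle, Lss and Cyp51), beside 13.9% of all genes. The lowest pool was mutant pool 1 or wild-type pool 1 for 6 of the 7, the exception being Sqle, beside 33.7% of all genes.

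Pearson's r over the 6 pools was above 0 for all 21 pairs of the 7 genes, with a mean of 0.57, beside a mean of 0.004 over all pairs of genes. All of these values come from the same 6 arrays, so they are given as a description. The most similar pair was Hmgcs1 with Cyp51 (r = 0.88) and the least similar was Idi1 with Fdps (r = 0.16). Against the mean of the other 6, Hmgcs1 had an r of 0.99, Cyp51 0.76, Lss 0.73, Sqle 0.68, Fdps 0.65, Idi1 0.62 and Fdft1 0.55. Hmgcs1 also had the 2nd widest range of the 7, 0.45 on the log2 scale, after Idi1 at 0.56. The range of the members was otherwise ordinary: its median was 0.30, beside 0.28 over all genes.

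The similarity was weaker without mutant pool 2 (mean r = 0.39 over 5 pools, 18 of 21 pairs above 0). Leaving out the pools farthest from the middle, mutant pool 2 and wild-type pool 1, gave a mean of 0.37 over 4 pools with 17 of 21 pairs above 0. Without both pools numbered 1 the mean was 0.44, and without both numbered 3 it was 0.74. The mean over all pairs of genes stayed between 0.0002 and 0.0075 in these and the other settings.

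Probe sets of 1 gene did not always share the pattern. Of the 20 pairs of probe sets within a gene, 15 had an r above 0. Lss probe set 1420014_at ran against the other members (r = -0.58), as did Fdps probe set 1438150_at (r = -0.38) and Fdft1 probe set 1438919_x_at (r = -0.21). Fdft1 probe set 1438918_at had an r of 0.03. All 4 probe sets of Hmgcs1 followed the other members, with r of 0.66 to 0.92. Over the 151 pairs of probe sets of different members, 108 had an r above 0 and the mean was 0.27, beside 0.005 over all pairs of probe sets. Without probe sets named _x_at, _s_at or _a_at, which can bind several transcripts, the mean between genes was 0.41, with 17 of 21 pairs above 0.

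**Figure D3:**
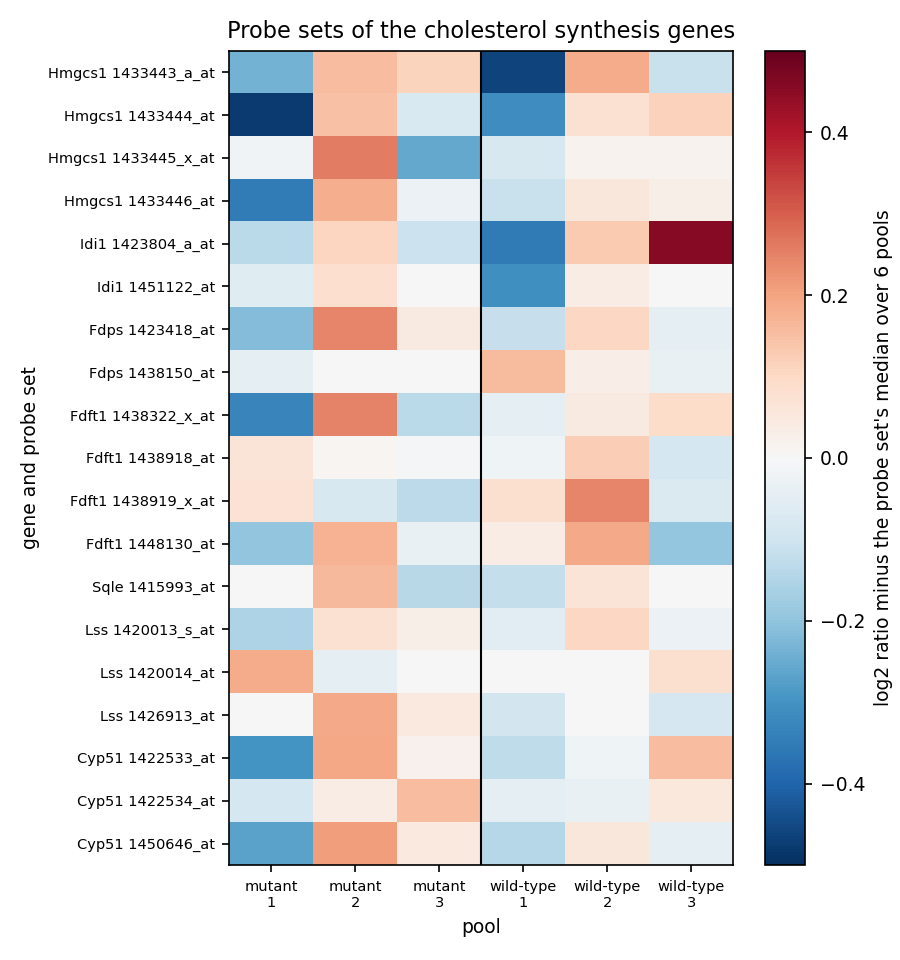
Log2 ratio minus the probe set's median over 6 pools for the 19 probe sets (rows) in each pool (columns, mutant pools left of the line), from blue (low) to red (high). Most rows are blue in the pools numbered 1 and red in those numbered 2, while Lss 1420014_at, Fdps 1438150_at and Fdft1 1438919_x_at differ.

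The other genes of the pathway were taken from lists chosen with earlier results of these data known. Of 49 genes listed, 39 were measured, and 0 of them passed the adjusted threshold in limma. At an unadjusted p under 0.05 there was 1 (Dhcr7), beside 2.67% of all genes, and 4 of the 39 had groups that did not overlap, beside 7.46% of all genes. Their median difference was 0.01, with 25 higher and 14 lower in mutant pools.

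In the mevalonate arm 3 of 4 other genes were higher and 1 lower. Mvk, the mevalonate kinase, was at 0.05 (SE 0.0851), Mvd, the mevalonate diphosphate decarboxylase, at 0.04 (SE 0.0997) and Ggps1, the geranylgeranyl diphosphate synthase, at -0.005 (SE 0.0963). In the sterol arm 4 of 8 were higher and 4 lower. Dhcr7, the reductase of the last step of cholesterol synthesis, had a ratio of 1.01, 1.12 and 1.27 in mutant pools, against 0.993, 0.926 and 0.939 in wild-type pools. All mutant pools lay above all wild-type pools, with a difference of 0.24 (SE 0.0934, 95% interval 0.04 to 0.45, adjusted p = 0.9997 in limma). Without mutant replicate 3 the difference of Dhcr7 was 0.16. With the sex score (Xist minus the mean of Y-linked genes) in the fit it was 0.07 (SE 0.164). All mutant pools had a higher sex score than all wild-type pools, so this fit separates score and genotype poorly. The sterol reductase Tm7sf2 was at 0.10 (SE 0.102), Nsdhl, a dehydrogenase of sterol demethylation, at -0.07 (SE 0.102) and the methyl oxidase Msmo1 at -0.03 (SE 0.15).

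Among genes that control the pathway, 3 of 5 were higher. Srebf2, which encodes the SREBP factor that mainly drives cholesterol synthesis, had a ratio of 1.04, 1.04 and 0.997 in mutant pools, against 0.978, 0.968 and 0.776 in wild-type pools. The pools did not overlap, wild-type pool 3 stood apart as the lowest, and the difference was 0.18 (SE 0.0971, adjusted p = 0.9997 in limma). Without wild-type replicate 3 the difference of Srebf2 was 0.08. With the sex score, which is poorly separated from genotype, in the fit it was 0.01 (SE 0.171). Srebf1, which encodes SREBP factors of fatty acid and sterol genes, was at 0.08 (SE 0.081), Scap, the escort of SREBP, at -0.03 (SE 0.106), and Mbtps1, the protease that first cuts SREBP, at -0.02 (SE 0.0774). Insig2, the relative of Insig1, was at 0.01 (SE 0.0983).

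Of 9 genes of uptake and intracellular transport, 5 were higher and 4 lower. The lipoprotein receptor gene Vldlr had a ratio of 0.974, 0.975 and 0.961 in mutant pools, against 1.03, 1.002 and 1.05 in wild-type pools. Its groups did not overlap, at a difference of -0.08 (SE 0.0693, adjusted p = 0.9997 in limma), and this size depends on its probe sets. It was -0.04 without the _x_at, _s_at and _a_at probe sets, -0.04 without rows of median below 1, and -0.20 (SE 0.118) by the most variable probe set. Scarb1, a receptor for high-density lipoprotein, was at 0.11 (SE 0.0893), the lysosomal lipase gene Lipa at 0.07 (SE 0.0778) and Stard3, a late endosomal sterol carrier, at -0.07 (SE 0.0893). Of 3 efflux genes, the exporters Abca1 and Abcg1 were at 0.10 (SE 0.0798) and 0.07 (SE 0.0787) and the sterol-sensing receptor gene Nr1h3 at -0.03 (SE 0.076).

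Of 10 fatty acid synthesis genes, 8 were higher and 2 lower. The desaturase genes Fads1 and Scd1 were at 0.12 (SE 0.0955) and 0.10 (SE 0.0816). Acaca, the acetyl-CoA carboxylase, had a ratio of 0.995, 0.917 and 0.949 in mutant pools, against 1.005, 1.01 and 1.197 in wild-type pools. Its groups did not overlap, at a difference of -0.16 (SE 0.0882, adjusted p = 0.9997 in limma), or -0.08 without wild-type replicate 3. The difference of Acaca was 0.01 (SE 0.153) with the sex score, which is poorly separated from genotype, in the fit. Me1, the malic enzyme, was at -0.04 (SE 0.0894).

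The pool pattern of the 7 members was next looked for in these 39 genes. An r above 0.5 to the mean of the members was found for 15 of 39, beside 16.4% of the other 12386 genes. It was found for 6 of 8 other sterol arm genes (median r = 0.79), 2 of 4 mevalonate arm genes (median 0.48) and 4 of 10 fatty acid genes (median 0.32). For the genes of SREBP control it was 1 of 5, for uptake and transport 2 of 9, and for efflux 0 of 3 (median -0.34). Whether these shares differ between the lists was not tested.

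Msmo1, which acts downstream of Cyp51, had the highest r of the 39 (0.97). Its ratio was 0.783, 1.13 and 0.969 in mutant pools, against 0.798, 1.12 and 1.03 in wild-type pools, low in both pools numbered 1 and high in both numbered 2. Pmvk, the phosphomevalonate kinase, had an r of 0.94 and Acly, which supplies cytosolic acetyl-CoA, 0.91, although Acly ranged over 0.08 on the log2 scale. Lbr, a sterol reductase that is also a nuclear envelope protein, was at 0.82, Ebp, a sterol isomerase, at 0.81, Sc5d, a sterol desaturase, at 0.79 and Tm7sf2 at 0.78. Dhcr7, of the same arm, had an r of 0.03, Srebf2 -0.15 and Insig2 0.01. The lowest of the 39 was Lipa, which frees cholesterol from lysosomal esters, at -0.77.

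Both pools numbered 2 lay above both numbered 1 for 7 of 8 other sterol arm genes and 3 of 4 mevalonate arm genes, beside 18.2% of all genes. For the SREBP control genes it was 0 of 5, for uptake and transport 1 of 9, for efflux 0 of 3 and for fatty acid synthesis 4 of 10. The sterol arm, measured by genes outside the set, had mean deviations of -0.10, 0.12 and 0.01 in mutant pools. In wild-type pools they were -0.12, 0.06 and -0.004. These were close to the values of the 7 members in the pools numbered 1 and 2. In the pools numbered 3 the members were at -0.03 (mutant) and 0.02 (wild-type), of opposite sign to the sterol arm.

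**Figure D4:**
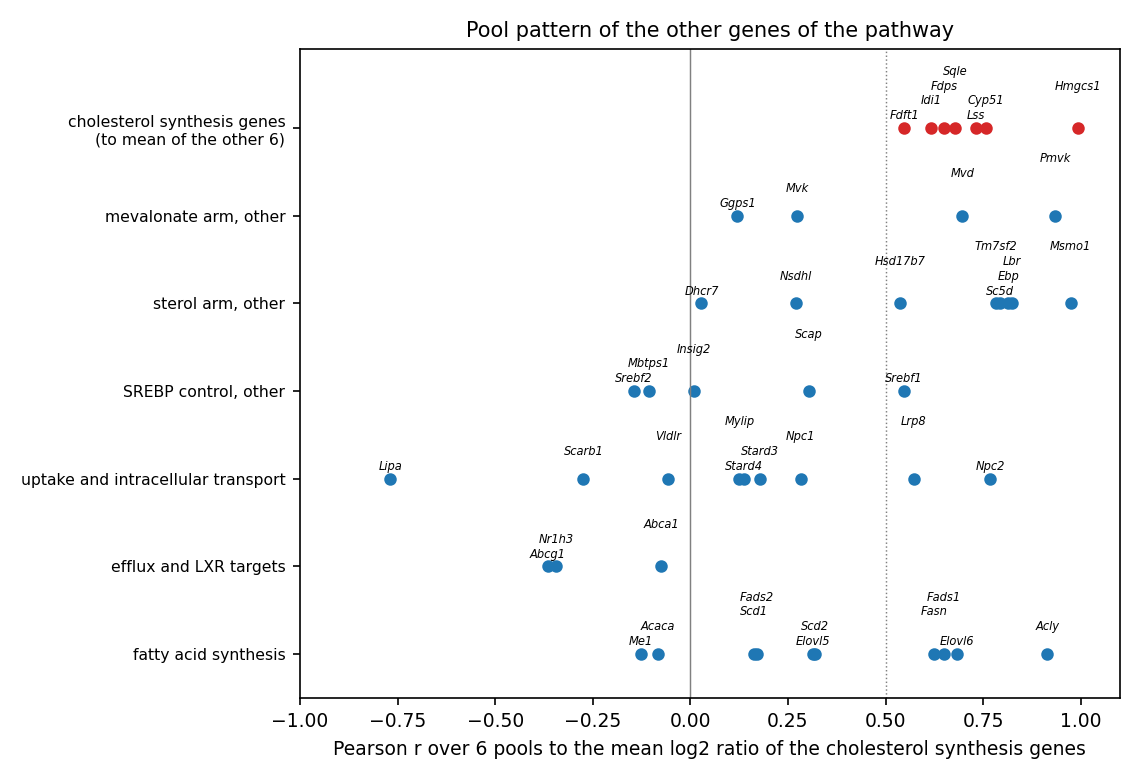
Pearson's r over 6 pools between each gene (point, named above it) and the mean log2 ratio of the 7 cholesterol synthesis genes, by list, and for the 7 genes themselves to the mean of the other 6 (red, top row). The dotted line is at 0.5, which 6 of 8 other sterol arm genes and 0 of 3 efflux genes pass.

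Genes outside the pathway with the same pool pattern exist as well: 70 of 12386 genes (0.565%) had an r above 0.9, 3 of them among the 39. The 8 most alike outside the lists were Rcor3, Fbn2, Rc3h2, Pik3r1, Trap1, Znrd1as, Ndufs3 and Mto1, with r of 0.97 to 0.999. Fbn2, which encodes the microfibril protein fibrillin-2, had the widest range of them. It was at 0.80, 1.25 and 0.963 in mutant pools, against 0.82, 1.14 and 1.04 in wild-type pools. None of the 8 differed by more than 0.03 between genotypes. This follows from their choice by likeness to a mean that hardly differed between genotypes.

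Other measures of the pools were set beside the pattern. The first principal component of all probe sets (41.8% of variance) was at -15.1, 5.3 and 11.3 in mutant pools 1 to 3. In wild-type pools 1 to 3 it was at -11.6, -8.05 and 18.2. Both pools numbered 1 were lowest on it and in the members, and mutant pool 2 was positive in both. Wild-type pool 2 was low on it and high in the members, and both pools numbered 3 were highest on it. The sex score was at 0.04, 0.81 and 0.73 in mutant pools and -0.08, -1.48 and -1.73 in wild-type pools. Array medians ran from 0.99 to 1.003. The part of these measures in the pool pattern was not tested.

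Markers of other cells had these mean deviations per pool. For yolk sac and endoderm (14 of 15 genes measured) they were -0.07 to 0.12 in mutant pools and -0.11 to 0.10 in wild-type pools, and 0 of the 14 had an r above 0.5 to the members. For heart (10 of 10) they were 0.01 to 0.05 in mutant pools and -0.04 to 0.02 in wild-type pools, with 2 of 10 above 0.5. For erythroid cells (8 of 9) they were 0.01 to 0.29, highest in mutant pool 2, and -0.17 to -0.02 in wild-type pools, with 0 of 8 above 0.5. For neural tube (8 of 8) they were -0.10 to 0.11 in mutant pools and -0.08 to 0.06 in wild-type pools, with 2 of 8 above 0.5, and for somite (10 of 10) -0.21 to 0.07 in mutant pools and 0.004 to 0.15 in wild-type pools, with 4 of 10. All 8 erythroid markers were higher in mutant pools, and 5 had groups that did not overlap, beside 7.46% of all genes. At an unadjusted p under 0.05 in limma there were 5 of the 8, beside 2.67% of all genes, and 0 passed the adjusted threshold. The part of the cells of these lists in the pool pattern was not tested.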

How the data were processed

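RNA of 3 Dll3 mutant and 3 wild-type pools was measured on 6 Affymetrix MOE430A arrays. The authors deposited 22690 probe sets by 6 pools as a linear ratio to a reference of each probe set. That unit is an inference: 93.4% of rows centre on 1 (median within 0.0015), 1497 lie lower and none higher. RMA and MAS5 appear per the submitters' processing notes, with neither a role nor a version, and the scaling of the arrays is not stated there. Signal over background is lost in a ratio, so a dim probe set cannot be told from a bright one.

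The 64 control probe sets were left out. The log2 of the ratio (no pseudocount) of 22626 probe sets was tested with limma 3.58.1 under R 4.3.3, using lmFit and eBayes with genotype as the only term (two-sided, Benjamini-Hochberg over all, threshold 0.05), and likewise 12393 genes as means of their probe sets. Only the 20380 probe sets that the platform annotation gave 1 gene were named; 691 had several and 1555 none. The number of arrays limits the precision, with a median SE of 0.0869 over all genes, and an exact permutation test of 3 against 3 pools cannot go below p = 0.1. The scripts were tested on simulated data. Figures were drawn with matplotlib 3.10.9.

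The members, lists, tests and alternatives were chosen with earlier results of these data known. Named beside the members are the 2 genes of smallest p per direction in each pathway list, Dhcr7, Srebf2 and Insig2, Dll3, and the 8 genes outside the lists of highest r to the member mean. Other genes named for their r were chosen after their values were seen. Some genes of the lists are not reported here. Correlations are descriptions without p-values. Over all probe sets, deviations from genotype means of same-numbered pools correlated at 0.37, -0.02 and 0.37 for numbers 1, 2 and 3. Those of pools of different number correlated at -0.43 to 0.20. Same-numbered pools thus resembled each other for numbers 1 and 3 but not for number 2. The main fit does not pair the pools, and the replicate block is an alternative. Alternatives were the replicate block, a variance trend, array weights, quantile normalization, median centring, a robust prior, probe-set filters, pools left out, the sex score and the most variable probe set per gene.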

Additional observations from a re-analysis of the deposited data

How the results depend on the processing

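None of the 7 genes passed the adjusted threshold in any of the 119 values that 17 alternatives gave, where the smallest adjusted p was 0.66, and 90 of these values kept the sign reported. Fdft1 (-0.12 to -0.003) and Lss (0.03 to 0.14) kept their sign in every alternative. Single probe sets of both went the other way, with Fdft1 1438918_at at 0.02 and Lss 1420013_s_at at -0.02. The signs of the other genes turned as follows, all as log2 differences of values near 0, and the cause was not tested. Hmgcs1 was at 0.11 with array weights, 0.014 with quantile normalization, 0.036 without both pools numbered 3, 0.094 with the sex score and 0.14 by its most variable probe set. Idi1 was at 0.090 with array weights, 0.018 with quantile normalization, 0.10 without _x_at, _s_at and _a_at probe sets, 0.12 without both pools numbered 3 and 0.37 (SE 0.19, adjusted p = 0.99996 in limma) with the sex score. Fdps was at 0.023 with array weights and 0.045 without rows of median below 1 or by its most variable probe set, and Cyp51 was at -0.030 by its most variable probe set. With each pool left out in turn Hmgcs1 ran from -0.12 to 0.11, Idi1 from -0.17 to 0.11, Fdps from -0.070 to 0.057, Sqle from -0.050 to 0.10 and Cyp51 from -0.054 to 0.13.

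The number of probe sets that limma called was 0, and 1 (Uncx) with the replicate block or array weights. The count of genes was 0, and 1 (Uncx) with the replicate block, the variance trend or array weights. Both counts were 0 to 1 with a pool left out (Xist, without wild-type replicate 1). The replicate block changed no call of a member. Median differences of the lists moved by more than the spread between pools for the sterol arm with the sex score (0.10), SREBP control with array weights (0.085) and with pools left out (-0.054 to 0.076), uptake without _x_at, _s_at and _a_at probe sets (-0.036) and with pools left out (-0.040 to 0.037), and efflux with the sex score (0.12) and with pools left out (0.028 to 0.12). The mean r between members was 0.37 to 0.74 over its alternatives, of which the left-out pools and the probe-set filters were chosen after seeing the data, and 0.39 to 0.65 with 1 pool left out.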
